A study of Mus musculus with 4 samples.

Results

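Corticotrope nuclei of the mouse pituitary were chosen by their transcript counts (unique molecular identifiers, UMIs). The rule asked for at least 1 UMI in 3 or more of 7 genes (Crhr1, Avpr1b, Gpc5, Cdh8, Ano3, Alpk2 and Pla2g4e) including a receptor gene, Crhr1 or Avpr1b, and for no more than 1 UMI summed over 4 genes of other endocrine cells (Pax7, Oacyl, Ghrhr and Pappa2). Among 35615 nuclei with at least 500 genes and under 5% mitochondrial UMIs, 448 (1.26%) met this rule. Single-nucleus RNA-seq had been run on 4 libraries, each from nuclei of 3 pooled, snap-frozen pituitary glands of wild-type UM-HET3 mice, a genetically heterogeneous stock used in ageing research. The labels give 1 library to each age and sex. By these labels, 163 corticotropes came from 22-month males, 57 from 22-month females, 144 from 5-month males and 84 from 5-month females. No group had a second library, so the pools measure no spread between animals.

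Corticotropes make the precursor proopiomelanocortin from Pomc and cut it with the convertase encoded by Pcsk1 to adrenocorticotropin, which drives glucocorticoid output of the adrenal cortex. Corticotropin-releasing hormone acts on them through Crhr1 and cyclic AMP, vasopressin acts through Avpr1b and calcium, and glucocorticoids feed back through the receptor Nr3c1. Melanotropes of the intermediate lobe express Pomc too, and carry Pax7, which specifies them, and Pcsk2, which cuts the precursor further.

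Sex-linked transcripts went against 2 of the labels. In corticotropes, Xist, the transcript of the inactive X chromosome, had 2840 UMIs in the library labelled 22-month males, 992 in that labelled 22-month females, and 0 in both libraries labelled 5-month. The Y-linked gene Uty had 0 UMIs in both libraries labelled 22-month, against 169 in that labelled 5-month males and 139 in that labelled 5-month females. The library labelled 22-month males therefore carried the transcripts of XX cells and that labelled 5-month females those of XY cells. Labelled age cannot be told apart from sex chromosome content in these libraries. If those 2 labels were exchanged, the contrast of labelled females over males given further on would compare 22 with 5 months, and that of labelled age would compare the sexes. Groups below are named as labelled.

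The activity-regulated genes Fos, Junb and Btg2 stood apart between libraries in these nuclei, and Pomc is the gene that defines the cells' product. The 250 bases before their transcription start sites are shown because the first 3 genes moved together. They come from RefSeq for the build GRCm38.p6, at chr12:85473640-85473889 on the plus strand for Fos, chr8:84978749-84978998 on the minus strand for Junb, chr1:134079156-134079405 on the minus strand for Btg2 and chr12:3954695-3954944 on the plus strand for Pomc. Capitals mark TGACG or its reverse complement CGTCA, the core of the cyclic AMP response element, searched on both strands.
Fos: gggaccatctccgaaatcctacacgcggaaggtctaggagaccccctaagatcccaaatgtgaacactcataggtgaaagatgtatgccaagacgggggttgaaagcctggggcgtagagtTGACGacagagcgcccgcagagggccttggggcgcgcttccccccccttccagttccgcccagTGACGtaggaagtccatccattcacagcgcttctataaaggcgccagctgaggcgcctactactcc
Junb: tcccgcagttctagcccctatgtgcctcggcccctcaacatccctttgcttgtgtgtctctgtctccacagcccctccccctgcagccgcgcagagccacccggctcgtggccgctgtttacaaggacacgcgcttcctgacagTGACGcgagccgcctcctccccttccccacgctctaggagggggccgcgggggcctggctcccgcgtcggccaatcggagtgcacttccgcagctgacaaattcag
Btg2: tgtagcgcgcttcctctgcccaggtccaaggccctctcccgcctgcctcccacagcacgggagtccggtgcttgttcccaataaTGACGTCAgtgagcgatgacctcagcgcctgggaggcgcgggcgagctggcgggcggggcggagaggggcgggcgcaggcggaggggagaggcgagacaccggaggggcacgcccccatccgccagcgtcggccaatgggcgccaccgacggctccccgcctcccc
Pomc: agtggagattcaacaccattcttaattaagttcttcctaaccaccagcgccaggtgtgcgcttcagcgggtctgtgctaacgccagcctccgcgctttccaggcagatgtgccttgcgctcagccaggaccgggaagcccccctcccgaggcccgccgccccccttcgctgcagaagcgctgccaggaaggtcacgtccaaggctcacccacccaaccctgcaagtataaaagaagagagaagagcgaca
Fos held the motif 66 and 129 bases before its start, and Junb held it 106 bases before. In Btg2 the pair of overlapping matches, 163 and 166 bases before the start, formed the palindrome TGACGTCA, while the Pomc window held no match. The motif occurred in 17.8% of 32851 promoter windows of the same length, and a match describes letters only.

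Identity of the nuclei was checked on genes that the rule did not use. Every corticotrope nucleus had Pomc UMIs, with medians per nucleus of 55 UMIs in the 22-month males and 74 in the 22-month females, against 97.5 in the 5-month males and 173 in the 5-month females. Presence alone does not mark the cells, since 100% of macrophage nuclei in all 4 libraries had a Pomc UMI as well. Tbx19, the transcription factor that activates Pomc, was at 231 and 287 counts per 1000000 UMIs of the class (CPM) in the 22-month males and females, against 209 and 259 CPM in the 5-month males and females. These levels were 13.0 and 37.1 times those of all other nuclei in the 22-month libraries, and 13.8 and 14.8 times in the 5-month libraries. UMIs of Tbx19 occurred in 55.6% to 80.7% of corticotropes over the 4 libraries. The shares were 41.0% to 51.0% in melanotropes and 0.486% to 1.39% in somatotropes, so the gene marked both Pomc classes. Pcsk2 was at 29.2 to 41.7 CPM, at most 0.123 times its level in other nuclei, so the melanotrope convertase was low in every library. Pax7 was limited by the rule itself. These markers are those of corticotropes, as the label has it.

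Values of the rule's own genes are given as a description. Crhr1 was at 231 and 213 CPM in the 22-month males and females, against 346 and 267 CPM in the 5-month males and females. Avpr1b was at 74.6 and 128 CPM in the 22-month males and females, against 48.5 and 64.2 CPM in the 5-month males and females. A Crhr1 UMI was seen in 80.7% to 94.4% of the nuclei and an Avpr1b UMI in 15.3% to 50.9%, so most nuclei entered through Crhr1. Gpc5, a glypican on the cell surface, was the most abundant gene of the rule at 1978 to 3124 CPM, and it was found in 91.2% to 98.2% of corticotropes and at most 4.01% of melanotropes. The median nucleus had UMIs of 4 of the 7 genes. Nuclei just inside the limit, with exactly 3, held Pomc at 14489 CPM in the 22-month males and 20831 CPM in the 22-month females, against 30244 CPM in the 5-month males and 40090 CPM in the 5-month females. Nuclei just outside, with 2 of the genes including a receptor, held it at 13385 CPM in the 22-month males and 25789 CPM in the 22-month females, against 23086 CPM in the 5-month males and 29091 CPM in the 5-month females. They numbered 21, 2, 16 and 19 over the same groups, beside 32, 9, 35 and 18 just inside. A further 67, 8, 65 and 34 nuclei, in the same order, had 3 or more of the genes but no receptor UMI. These held Pomc at 12812 and 16812 CPM in the 22-month males and females, against 26804 and 39005 CPM in the 5-month males and females. The rule leaves them out, so they are not in the shares given below.

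Other genes that were high in corticotropes were picked after their values were seen. Of 3684 genes with 20 or more UMIs in each library, 35 were at least 5-fold above all other nuclei in each library, and 15 of these were also at least 5-fold above melanotropes. Rspo3, a secreted activator of Wnt signalling, was 22.0 to 40.4 times the level of other nuclei and 41.1 to 223 times that of melanotropes. Kcnh7, an Erg-type potassium channel, was at 595 and 967 CPM in the 22-month males and females, against 662 and 735 CPM in the 5-month males and females, and was 16.0 to 22.7 times the other nuclei. The ephrin receptor gene Epha3 was 15.7 to 40.0 times the other nuclei. Zfpm2, a GATA cofactor, reached 1119 to 1517 CPM and was 11.2 to 13.7 times the other nuclei.

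Corticotropes took a smaller share of nuclei in the 22-month libraries of both labelled sexes. The share was 1.35% (95% exact Clopper-Pearson interval 1.15 to 1.57) in the 22-month males and 0.701% (0.531 to 0.907) in the 22-month females. It was 1.80% (1.52 to 2.12) in the 5-month males and 1.13% (0.904 to 1.40) in the 5-month females. The 22-month over 5-month ratio was 0.750 (0.596 to 0.946) in the labelled males and 0.619 (0.435 to 0.877) in the labelled females. Females over males, it was 0.519 (0.377 to 0.706) at 22 months and 0.629 (0.475 to 0.829) at 5 months. The intervals cover counting error only, and the shares were not tested over libraries. Corticotropes of the 22-month libraries were not shallower, at medians of 4909 and 6792 UMIs in males and females, against 4067 and 4967 in the 5-month males and females. With each nucleus thinned to 2000 UMIs, the ratio by labelled age was 0.729 (0.527 to 1.01) in males, an interval that reaches 1, and 0.431 (0.243 to 0.745) in females. Requiring 4 of the genes gave 0.797 (0.613 to 1.04) in males.

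**Figure D1:**
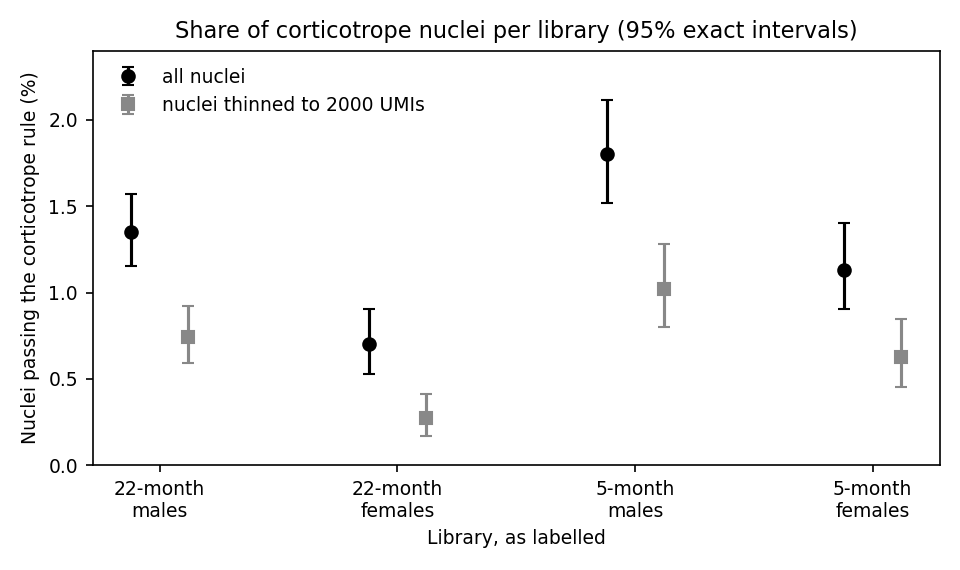
Share of nuclei that met the corticotrope rule (%, vertical axis) in each library as labelled (horizontal axis), with 95% exact intervals. Circles are all nuclei, squares are nuclei thinned to 2000 UMIs. The library labelled 22-month females was lowest in both, at 0.701% and 0.272%, and that labelled 5-month males highest, at 1.80% and 1.02%.

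Pomc was lower in the corticotropes of the libraries labelled 22-month. Its level was 11751 CPM in the 22-month males and 13073 CPM in the 22-month females, against 27290 CPM in the 5-month males and 33212 CPM in the 5-month females. The groups did not overlap. Over all 4 libraries, with labelled sex as a term, Pomc fell by 1.28 ± 0.17 on the log2 scale (SE; edgeR quasi-likelihood test, Benjamini-Hochberg adjusted p = 2.39e-08). Single nuclei spread widely within each library, and the median nucleus had 11643 CPM in the 22-month males and 11067 CPM in the 22-month females, against 23383 CPM in the 5-month males and 29801 CPM in the 5-month females. Without the library labelled 22-month males, or without that labelled 5-month females, the adjusted p was 0.0533 or 0.117, with the direction kept. In melanotropes Pomc was at 35001 and 27702 CPM in the 22-month males and females, against 65440 and 42489 CPM in the 5-month males and females. The age difference of Pomc in corticotropes minus that in melanotropes was -0.54 ± 0.24 on the log2 scale and did not pass (edgeR adjusted p = 0.989). Somatotropes, which do not make Pomc, showed it at 2990 and 904 CPM in the 22-month males and females, against 2500 and 2233 CPM in the 5-month males and females. The source of these somatotrope UMIs was not tested.

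**Figure D2:**
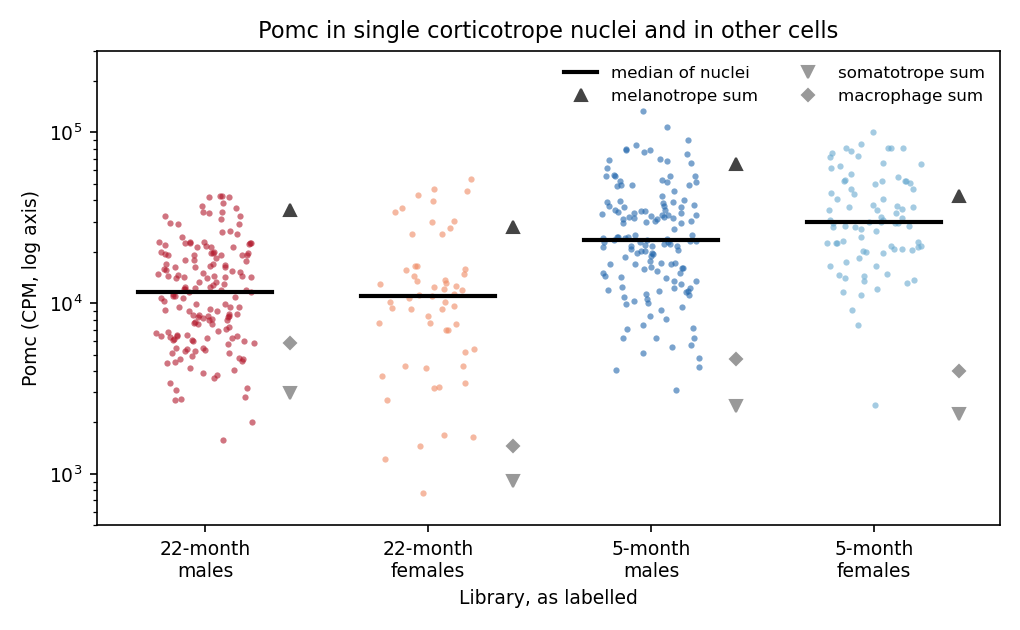
Pomc (CPM, log axis) in each corticotrope nucleus by library as labelled, with the median as a bar, beside the summed level in melanotropes, somatotropes and macrophages of the same library. Medians of the 22-month libraries, 11643 and 11067 CPM, lay below those of the 5-month libraries, 23383 and 29801 CPM, while most nuclei lay above the somatotrope level of their library.

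Across all genes, 8434 were tested for labelled age, and 245 (2.90%) passed at an adjusted p under 0.05, 173 higher (2.05%) and 72 lower (0.854%) in the 22-month libraries. The fit had 1 residual degree of freedom and borrowed the rest of its information from the spread over genes. DESeq2 called 18 genes. Leaving out a library and the sex term left 21 calls without the 22-month males, 132 without the 22-month females, 71 without the 5-month males and 131 without the 5-month females. Of the genes called higher, 13 passed in every such fit: Xist, Tsix, Il1rapl2, Gal, Gm1604a, Slc35f4, Prl, Asic2, Slc35f1, Nkain2, Lrrtm4, Pcdh7 and Reln. The 4 genes called lower that did so, Uty, Eif2s3y, Ddx3y and Kdm5d, were all Y-linked.

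Genes of precursor processing changed in both directions. Of 14 tested genes of prohormone cleavage and granule proteins, 1 rose (7.14%, against 2.05% of all genes) and 2 fell (14.3%, against 0.854% of all genes), with a median log2 difference of -0.07 against 0.00 over all genes. Pcsk1, which makes adrenocorticotropin from the precursor, was at 42.3 and 64.9 CPM in the 22-month males and females, against 129 and 93.2 CPM in the 5-month males and females, and fell by 1.15 ± 0.27 (edgeR adjusted p = 0.00577). The granins, acidic proteins that help to form secretory granules, moved in opposite directions. Chga was lower by a log2 difference of -0.75 ± 0.21 (edgeR adjusted p = 0.0320) and Chgb was higher by 0.78 ± 0.21 (0.0204). Chgb stood at 1190 CPM in the 22-month males and at 582, 449 and 541 CPM in the 22-month females, 5-month males and 5-month females, so 1 library set most of that difference, and its adjusted p without it was 0.785. Of 20 tested genes of regulated exocytosis, only Rims1 (5% against 2.05% of all genes higher), an active zone scaffold, passed, and it rose by 1.0 ± 0.30 (edgeR adjusted p = 0.0472) and not without the 22-month females (0.742).

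Among transcription factors of the lineage, Tbx19 differed by 0.15 ± 0.20 (edgeR adjusted p = 0.851). Of 11 tested factors, none rose and 2 fell (18.2%, against 0.854% of all genes). Among these, Nr4a2, the orphan receptor Nurr1 that acts on the Pomc promoter, was at 21.2 and 34.8 CPM in the 22-month males and females, against 179 and 53.9 CPM in the 5-month males and females, and fell by 2.22 ± 0.34 (1.61e-06). Without the library labelled 5-month males, the adjusted p of Nr4a2 was 0.541.

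Of the immediate-early genes, a rapid response to cyclic AMP and calcium signals, Fos, Junb, Jund, Egr1 and Btg2 fell in the 22-month libraries, against a background of 0.854% of all genes lower. Only 6 of the 20 genes listed had enough UMIs to be tested. Genes such as Fos passed the count filter through the 5-month libraries, where they are high, so the 5 falls among the 6 say nothing of the list as a whole. Fos had 0 UMIs in both 22-month libraries, against 178 in the 5-month males and 13 in the 5-month females. Set against the floor of 3 UMIs per library, Fos was at least 88.4-fold lower in the 22-month males than in the 5-month males, and at least 3.92-fold lower in the 22-month females than in the 5-month females. Junb was at 62.5 and 34.8 CPM in the 22-month males and females, against 887 and 89.1 CPM in the 5-month males and females. Btg2, an antiproliferative early gene, was at 111 and 76.5 CPM in the 22-month males and females, against 606 and 199 CPM in the 5-month males and females. The library labelled 5-month males thus stood far above the other three in each. Without it, the adjusted p was 0.577 for Junb and 0.0699 for Btg2.

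The same library was high in other cells. Summed over the 20 genes, corticotropes had 282 and 188 CPM in the 22-month males and females, against 2466 and 456 CPM in the 5-month males and females. All other nuclei had 216 and 221 CPM in the 22-month males and females, against 797 and 227 CPM in the 5-month males and females. Junb in melanotropes was at 28.0 and 27.7 CPM in the 22-month males and females, against 977 and 62.7 CPM in the 5-month males and females. A Fos UMI was found in 38.2% of corticotropes and 67.6% of melanotropes of the 5-month males, against 1.58% of their somatotropes. The fall of Btg2 by labelled age was larger in corticotropes than in somatotropes by a log2 difference of -1.47 ± 0.29 (edgeR, class by age term, adjusted p = 0.0129). What sets that library apart was not tested.

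**Figure D3:**
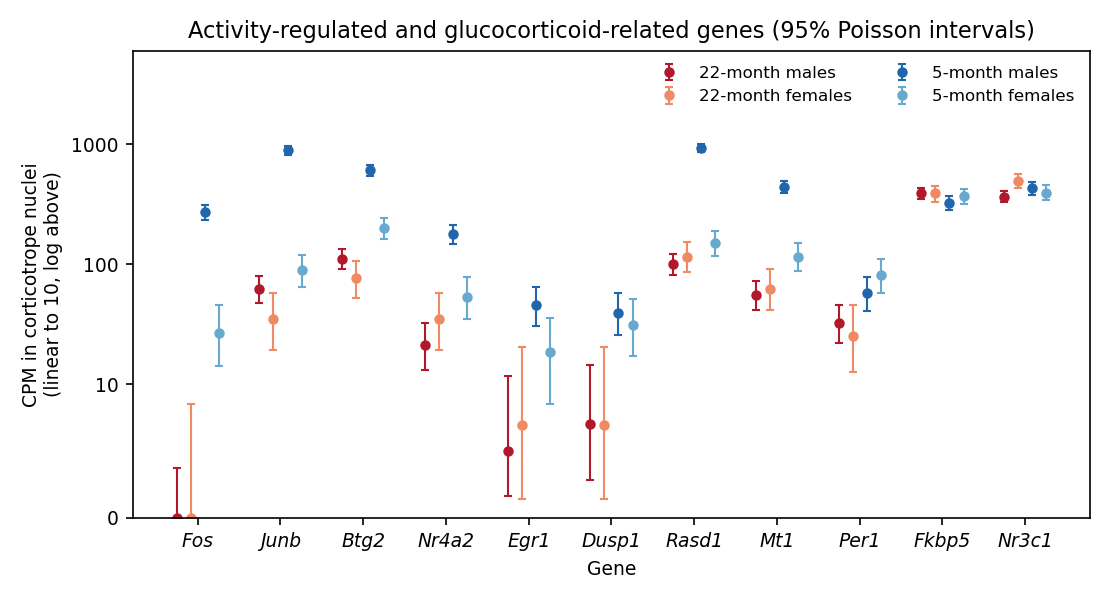
CPM in corticotropes (linear to 10, log above) of activity-regulated genes and of genes linked to glucocorticoids, by library as labelled, with 95% Poisson intervals for counting error. Fos, Junb, Btg2, Nr4a2, Rasd1 and Mt1 stand high in the library labelled 5-month males, while Fkbp5 and Nr3c1 lie between 326 and 498 CPM in all 4.

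Glucocorticoid feedback genes split. The receptor gene Nr3c1 was at 366 and 498 CPM in the 22-month males and females, against 429 and 396 CPM in the 5-month males and females (log2 difference 0.04 ± 0.20, edgeR adjusted p = 0.973). Fkbp5, a chaperone induced through the receptor that dampens it, was at 391 and 389 CPM in the 22-month males and females, against 326 and 369 CPM in the 5-month males and females (0.18 ± 0.20, 0.798). Of 19 tested genes of the list, 1 rose (5.26%, against 2.05% of all genes) and 5 fell (26.3%, against 0.854% of all genes). Some that fell were sparse in the 22-month libraries, such as Dusp1, with a UMI in 3.07% and 5.26% of corticotropes of males and females. Such genes may have passed the count filter through the 5-month libraries, where they are high. The 5 falls thus say nothing of the list as a whole. The metallothionein Mt1 was at 55.4 and 62.6 CPM in the 22-month males and females, against 438 and 116 CPM in the 5-month males and females, and fell by 2.25 ± 0.27 (2.57e-09). Mt2 fell with it, as did Per1, a clock gene, Dusp1, a phosphatase of MAP kinases, and Errfi1, an inhibitor of the EGF receptor. The one that rose was Zbtb16, a zinc finger factor, at 66.5 and 137 CPM in the 22-month males and females, against 27.3 and 80.8 CPM in the 5-month males and females (0.98 ± 0.28, 0.0354). Of these 6, none passed without the library labelled 5-month males, and Mt1 then had an adjusted p of 0.216. Rasd1, a small GTPase induced by dexamethasone that was outside the lists and named after its values were seen, was at 101 and 116 CPM in the 22-month males and females, against 925 and 149 CPM in the 5-month males and females.

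Signalling below the receptors changed at single genes. Of 26 tested genes of corticotropin-releasing hormone and cyclic AMP signalling, none rose and only Crem fell (3.85%, against 0.854% of all genes). This gene, whose inducible form represses cyclic AMP targets, was at 121 and 95.1 CPM in the 22-month males and females, against 183 and 205 CPM in the 5-month males and females (-0.81 ± 0.22, edgeR adjusted p = 0.0224). Of 17 tested genes of vasopressin and calcium signalling, Plcb4, a phospholipase C, rose by 0.71 ± 0.20 (0.0354), Prkce, a protein kinase C, rose by 0.84 ± 0.19 (0.00425), and none fell. These 2 were 11.8% of that list, against 2.05% of all genes higher. Of 17 potassium channel genes, only Kcnq3 (5.88%) passed, with a rise of 1.93 ± 0.42 (0.00159). None of 16 tested calcium, sodium and HCN channel genes passed in edgeR or DESeq2, with 5 at an unadjusted edgeR p under 0.05. None of the 13 tested genes tied to corticotroph tumours passed in either tool, with 0 at that level. None of 9 interferon and MHC class I genes passed, with 2 at that level, and none of 6 senescence and p53 genes, with 2. In the remaining lists, Per1 was the only 1 of 16 clock genes (6.25%), and Ern1, a sensor of unfolded protein, the only 1 of 18 genes of that response (5.56%) to pass, the last with a rise of 0.91 ± 0.25 (0.0275). None of the genes called in this paragraph kept its call with each library left out in turn.

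Neuronal adhesion genes made up the largest group of rises. Of 32 tested, 12 rose (37.5%, against 2.05% of all genes) and none fell, with a median of 0.52 against 0.00 over all genes. In the test of the age difference in corticotropes against that in melanotropes, 0 of 37 genes of the list passed, with a median of 0.07. Against somatotropes, 1 of 37 was higher (2.7%, against 0.136% of all genes) and 1 lower (2.7%, against 0.207%), with a median of -0.23. The rises of the list were thus not shown to be particular to corticotropes. Cntnap2, a neurexin-like cell adhesion gene, was at 1147 and 2655 CPM in the 22-month males and females, against 200 and 1264 CPM in the 5-month males and females, and rose by 1.74 ± 0.21 (edgeR adjusted p = 4.65e-09). Its groups overlapped, since the 5-month females exceeded the 22-month males. Lrrtm4, a postsynaptic organiser, was at 73.6 and 128 CPM in the 22-month males and females, against 19.7 and 22.8 CPM in the 5-month males and females, and rose by 2.17 ± 0.33 (1.61e-06). Pcdh7, a protocadherin, was at 103 and 285 CPM in the 22-month males and females, against 24.3 and 60.1 CPM in the 5-month males and females, and rose by 2.17 ± 0.26 (2.94e-09). Lsamp, a GPI-anchored adhesion protein, was the most abundant of the 12 at 5112 and 6158 CPM in the 22-month males and females, against 2945 and 3513 CPM in the 5-month males and females (0.80 ± 0.17, 0.00152). Nlgn1, Cntn4, Cntn5, Sgcz, Opcml, Ntm, Nrxn3 and Dscam rose by 0.75 to 2.37. Cntn5 was sparse, with a UMI in 4.29% and 5.26% of corticotropes of the 22-month males and females. Lrrtm4 and Pcdh7 passed with each library left out in turn, and the other 10 did not. Cntnap2, Cntn4, Lsamp, Nlgn1 and Opcml, 5 of the 12, were above the level of all other nuclei in both 22-month libraries. Lrrtm4 and Pcdh7 were not among them. Of these 5, only Opcml had a higher ratio to the other nuclei at 22 months in both labelled sexes. Its ratios were 2.64 and 4.09 in the 22-month males and females, against 0.94 and 0.88 in the 5-month males and females. For Lsamp they were 3.04 and 1.86, against 7.52 and 5.99, in the same order. A Lrrtm4 UMI was found in 13.5% and 8.77% of corticotropes of the 22-month males and females, against 62.2% and 57.5% of their melanotropes. For Pcdh7 the shares were 15.3% and 29.8% of corticotropes, against 63.5% and 66.3% of endothelial nuclei of the same libraries.

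Receptors for transmitters and hormones rose in part. Of 16 tested glutamate and GABA receptor genes, Grm7, Grm5, Grid1 and Gabrg3 rose (25%, against 2.05% of all genes) and none fell. Of these 4, only Grm7 was above the level of all other nuclei in both 22-month libraries. A Gabrg3 UMI was found in 3.68% and 5.26% of corticotropes of the 22-month males and females. Grm7, a presynaptic metabotropic glutamate receptor, was at 234 and 434 CPM in the 22-month males and females, against 63.7 and 234 CPM in the 5-month males and females (1.32 ± 0.22, edgeR adjusted p = 1.95e-05). Of 20 tested receptors for other ligands, 3 rose (15%, against 2.05% of all genes) and none fell. Among them were Erbb4, a neuregulin receptor, by 2.66 ± 0.28 (3.84e-11), and Igf1r, the IGF-1 receptor, by 0.76 ± 0.21 (0.0272). Esr1, the estrogen receptor gene, was at 226 and 174 CPM in the 22-month males and females, against 124 and 149 CPM in the 5-month males and females and did not pass (0.58 ± 0.22, 0.169). Of 14 estrogen-responsive genes listed, 6 were tested, and of these Greb1 and Gal rose (33.3%, against 2.05% of all genes). Gal passed the count filter through the 22-month libraries alone, so the 2 rises among the 6 say nothing of the list as a whole. Gal, which encodes the peptide galanin, had 53 and 29 UMIs in the 22-month males and females and 0 in both 5-month libraries, so it was at least 11.9-fold and 10.7-fold higher in the labelled males and females. Gal was the only gene called in this paragraph that kept its call with each library left out in turn.

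**Figure D4:**
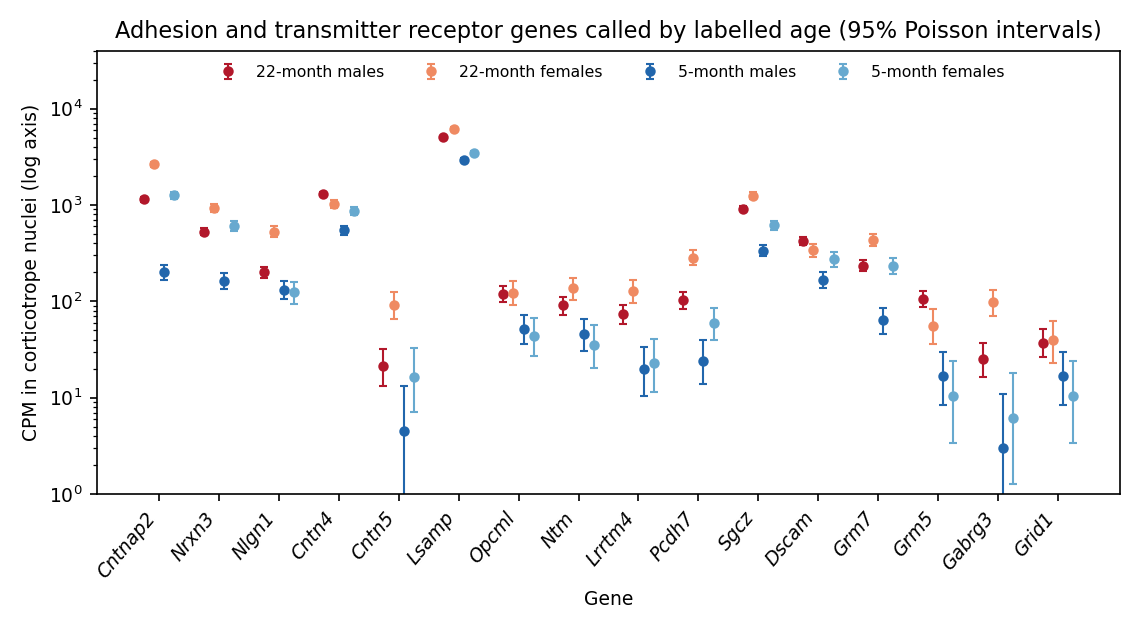
CPM in corticotropes (log axis) of the 12 neuronal adhesion genes and the 4 glutamate and GABA receptor genes that passed by labelled age, by library as labelled, with 95% Poisson intervals. For Cntnap2, Nrxn3 and Grm7 the 5-month females lie at or above the 22-month males, while for Lrrtm4, Pcdh7 and Lsamp both 22-month libraries lie above both 5-month libraries.

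Many genes called higher were at lower levels in corticotropes than in the other nuclei of the same library. Droplets can also capture free RNA from broken cells, so transcripts of abundant cell types can appear in other nuclei. The ratio of Prl, the lactotrope hormone gene, was taken as a point of reference. Whether Prl UMIs in corticotropes came from free RNA, from doublets or from the cells themselves was not tested. Prl was at 52158 and 22829 CPM in corticotropes of the 22-month males and females, against 8812 and 4466 CPM in the 5-month males and females (2.46 ± 0.17, edgeR adjusted p = 1.14e-18). That was 0.770 and 0.567 times the other nuclei in the 22-month males and females, and 0.546 and 0.494 times in the 5-month males and females. Gh, the somatotrope hormone gene, ran the other way, with a fall of 1.13 ± 0.17 (7.68e-07), at 0.343 to 0.422 times the other nuclei. Of the 173 genes called higher, 90 (52.0%) were at or below the Prl ratio in both 22-month libraries, against 4.40% of genes not called, and 37 (21.4%) exceeded the other nuclei in both, against 34.7% of genes not called. Of the 72 called lower, 52 (72.2%) exceeded the other nuclei in both 5-month libraries, against 35.6% of genes not called.

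Single genes followed this split. Gal was at 0.765 and 0.680 times the other nuclei in the 22-month males and females, and a Gal UMI was found in 25.8% and 36.8% of their corticotropes. With nuclei thinned to 2000 UMIs, it was found in 8.75% and 10.7% of corticotropes, 9.93% and 12.9% of somatotropes and 12.7% and 11.1% of macrophages. The share of corticotropes was thus below that of both other classes in each 22-month library. Reln, an extracellular matrix protein, was at 0.484 and 0.159 times, Erbb4 at 0.489 and 0.349 times and Il1rapl2, an X-linked synaptic organiser, at 0.355 and 0.149 times, all in that order. These genes were thus more abundant elsewhere in the gland. Among the genes above the other nuclei in both 22-month libraries were Cntnap2 at 2.91 and 3.68 times, Grm7 at 4.37 and 6.88 times, and Trpc5, a calcium-permeable channel, at 9.17 and 11.6 times. In the 5-month males and females these ratios were 3.48 and 14.3 for Cntnap2, 3.73 and 6.98 for Grm7, and 3.9 and 4.21 for Trpc5. Relative to the other nuclei, Cntnap2 was thus lower at 22 months in both labelled sexes, Grm7 higher in males only, and Trpc5 higher in both. Trpc5 was named after its values were seen, and it was at 456 and 438 CPM in the 22-month males and females, against 264 and 247 CPM in the 5-month males and females (0.81 ± 0.20, edgeR adjusted p = 0.00895). Its call was lost whichever library was left out. How much of each difference comes from free RNA was not tested.

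**Figure D5:**
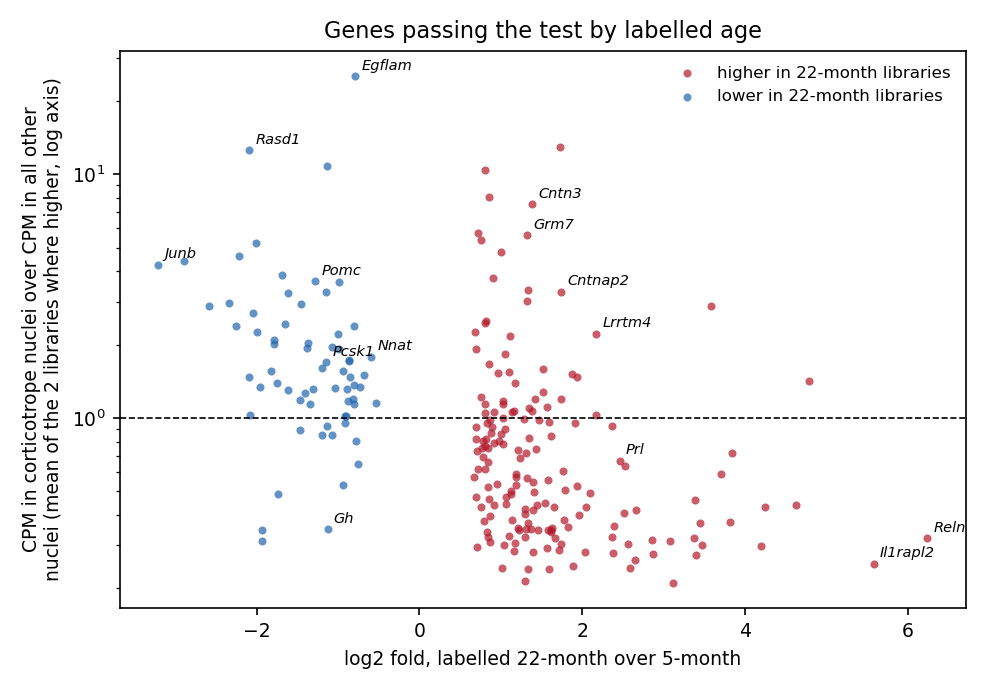
Genes that passed by labelled age, with the log2 difference (22-month over 5-month, horizontal axis) against the level in corticotropes over that in all other nuclei of the same library (log axis, mean of both libraries of the age at which the gene was higher). Of the 173 genes higher and 72 lower, 168 and 67 are drawn, since 5 and 5 had 0 UMIs in both libraries of an age. Most genes with log2 differences above 2.5 lie below 1, the line of equal level, and most of the genes called lower lie above it.

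Markers of other cell types were present in corticotropes, most of them below the level of all other nuclei. Macrophage markers summed to 9.07 and 25.5 CPM in the 22-month males and females, against 3.03 and 6.21 CPM in the 5-month males and females, with 2 of 4 at 0 in every library. All other nuclei had 20.3 and 27.1 CPM of them in the 22-month males and females, against 17.7 and 19.1 CPM in the 5-month males and females. Endothelial markers summed to 19.2 and 95.1 CPM in the 22-month males and females, against 3.03 and 14.5 CPM in the 5-month males and females. Stem cell markers summed to 33.3 and 39.4 CPM in the 22-month males and females, against 10.6 and 4.14 CPM in the 5-month males and females. In the 22-month females both lists exceeded the other nuclei, which had 59.9 CPM of endothelial and 31.8 CPM of stem cell markers, while in the remaining libraries both were below them. Lactotrope markers, of which Prl is one, were abundant at 52415 and 23017 CPM in the 22-month males and females, against 8948 and 4642 CPM in the 5-month males and females. Somatotrope markers, with Gh among them, were at 18898 and 14914 CPM in the 22-month males and females, against 47058 and 28493 CPM in the 5-month males and females. Both hormone lists were below their level in the other nuclei in every library. Their part in the results by labelled age was not tested. Scrublet called 19.6% and 14.0% of the corticotropes of the 22-month males and females doublets, against 14.6% and 20.2% in the 5-month males and females.

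By labelled sex, 81 of 8434 genes passed (0.960%), 57 higher and 24 lower in females. DESeq2 called 8. Leaving out a library and the age term left 56 calls without the 22-month males and 26 without the 5-month males, but 0 without the 22-month females and 0 without the 5-month females. The split was 70.4% higher, and 80.4% higher of 51 calls when hormone genes were left out of the library sizes, a setting added after the data were seen. Scn2a, a sodium channel gene, was at 116 and 120 CPM in the 22-month and 5-month females, against 37.3 and 34.9 CPM in the 22-month and 5-month males (1.72 ± 0.28, edgeR adjusted p = 3.05e-05). The groups did not overlap.

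Other channel and adhesion genes had the same direction. Kcnip4, a subunit of A-type potassium channels, was at 1245 and 742 CPM in the 22-month and 5-month females, against 442 and 396 CPM in the 22-month and 5-month males (1.23 ± 0.19, edgeR adjusted p = 1.24e-05). Mdga2, which binds neuroligins, was higher in females by 1.27 ± 0.19 (4.82e-06). Of 32 neuronal adhesion genes, 5 were higher and none lower (15.6%, against 0.676% of all genes), with a median of 0.29 against 0.00. In both labelled female libraries Kcnip4 and Mdga2 were above the other nuclei, at 3.29 to 9.51 times. The genes with the largest falls in females, Dpp10 at 6.96 and 2.07 CPM in the 22-month and 5-month females, against 93.8 and 36.4 CPM in the 22-month and 5-month males, and Thsd7b, were below the other nuclei in all 4 libraries. Pomc did not pass by labelled sex (0.24 ± 0.16, 0.740).

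The immediate-early genes also differed by labelled sex. Fos, Junb, Jund and Btg2, 4 of the 6 tested, were lower in females, against 0.285% of all genes lower. The 6 are the same genes as for labelled age, and some, such as Fos, passed the count filter through the 5-month libraries. The 4 falls among the 6 thus say nothing of the list as a whole. Junb, at 34.8 and 89.1 CPM in the 22-month and 5-month females, against 62.5 and 887 CPM in the 22-month and 5-month males, differed by -2.60 ± 0.30 on the log2 scale (edgeR adjusted p = 6.42e-09). For Btg2 the difference was -1.18 ± 0.23 (edgeR adjusted p = 0.00129). Without the library labelled 5-month males, which is highest in both, the log2 differences were 0.02 for Junb and 0.34 for Btg2. The high level of that 1 library thus entered both the contrast by age and that by sex.

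Few genes passed the test for a difference between corticotropes and melanotropes in their change by labelled age. With 2 residual degrees of freedom in the fit, a gene that did not pass was not shown to change alike in both. Of 13258 genes, 5 (0.0377%) passed for a difference between the classes, all higher in corticotropes, and 642 had an unadjusted p under 0.05. Nnat, an imprinted gene of a small membrane protein, was at 7474 and 6647 CPM in corticotropes of the 22-month males and females, against 10643 and 10509 CPM in the 5-month males and females. In melanotropes it was at 748 and 718 CPM in the 22-month males and females, against 2679 and 2626 CPM in the 5-month males and females, so the fall was smaller in corticotropes by 1.26 ± 0.17 (edgeR adjusted p = 0.00885). Il1rapl2, Slc35f4 and Dcc, a netrin receptor, made up most of the rest, with log2 differences of 4.79, 3.59 and 1.27, and the fifth was the unnamed transcript 6330411D24Rik. Il1rapl2, Slc35f4 and Dcc were more abundant in melanotropes than in corticotropes in every library. With a library left out the count was 51 without the 22-month males, 48 without the 22-month females, 42 without the 5-month males and 31 without the 5-month females.

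Against somatotropes, 53 of 15440 genes (0.343%) passed, 21 with a higher (0.136%) and 32 with a lower age difference (0.207%) in corticotropes. The count was 84 without the 22-month females, 87 without the 5-month males and 119 without the 5-month females. Opcml, an adhesion gene, was at 120 and 123 CPM in corticotropes of the 22-month males and females, against 51.5 and 43.5 CPM in the 5-month males and females, whereas somatotropes had 21.9 and 18.3 CPM in the 22-month males and females, against 55.0 and 47.1 CPM in the 5-month males and females (2.69 ± 0.29, edgeR adjusted p = 2.57e-06). Cntn3, a contactin gene, moved in opposite directions in the same way (2.53 ± 0.44, edgeR adjusted p = 0.00351). Sema3a, a secreted guidance cue, differed the other way, with corticotropes at 77.6 and 199 CPM in the 22-month males and females, against 69.7 and 112 CPM in the 5-month males and females. Somatotropes had 44.7 and 87.5 CPM in the 22-month males and females, against 1.11 and 4.00 CPM in the 5-month males and females (-4.23 ± 0.34, 2.39e-08). For Zfp804b, Frmpd4, Camk2a and Dpysl3 the lower age difference of corticotropes was likewise -2.58, -2.58, -2.67 and -3.12.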

How the data were processed

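The data were deposited count matrices of 4 libraries, with values that are UMI counts made by the authors with Cell Ranger 7.0.1, per the file headers, and with the build mm10, per the submitters' processing notes. Use of intronic reads was not given in the sources used here. Barcodes with at least 500 genes and under 5% mitochondrial counts were kept (35615 of 38212). Corticotropes held 991996 UMIs in the 22-month males, 431339 in the 22-month females, 659690 in the 5-month males and 482720 in the 5-month females. No barcode was shared by corticotropes of different libraries. The members, gene lists and tests were chosen with earlier results of these data known.

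Melanotropes and somatotropes were taken by Pax7 with Oacyl and Ghrhr with Pappa2. Counts were summed per library and class, filtered with filterByExpr, scaled by TMM and tested with edgeR 4.0.16 (quasi-likelihood, labelled age and sex as terms, prior degrees of freedom 64.9), with Benjamini-Hochberg adjustment over all genes kept and calls at 0.05; the genes of the rule were left out of the calls. DESeq2 1.42.0 and the other alternatives are given in the closing section. Class by age terms were fitted with library as a block. CPM are summed counts per 1000000 UMIs of the class. Doublets were scored with Scrublet in scanpy 1.11.5, with 1 threshold, the median of the automatic ones, for all libraries; they were kept in the results above. Simulated counts of 8441 genes gave 21 of 100 genes changed 2-fold and 77 of 100 changed 4-fold back for labelled age, and 37 and 87 for labelled sex. Positions are those of GENCODE M21.

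Genes were named by a rule: 11 core genes of the cell type, the members of the lists that passed, and those with the largest changes over 2-fold in both labelled sexes (or ages) with 20 or more UMIs, from which a few are described; genes outside it are said to have been named after their values were seen. A few genes that the rule picks are not reported here. Because pools were 1 per group, p-values measure no spread between animals or between libraries of the same group. In the fits by labelled age and sex, the 1 residual degree of freedom was the departure of the libraries from added age and sex terms. The fit moderated it by an estimate from all genes.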

Additional observations from a re-analysis of the deposited data

How the results depend on the processing

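No paired analysis was possible because each group had 1 library and the labels share no replicate numbers. By labelled age, 245 genes passed, against 18 with DESeq2, 66 when no UMI of the 4 excluding genes was allowed, 47 with labelled sex left out, 163 without Scrublet doublets and 21 to 132 with a library left out. By labelled sex, 81 passed, against 8 with DESeq2, 52 with RLE size factors, 51 with hormone genes left out of library sizes, 17 with no UMI of the excluding genes, 0 with labelled age left out (348 genes had an unadjusted p under 0.05 there) and 0 to 56 with a library left out. Fits without a library also drop the other labelled factor and take the lone library to vary like the rest. Against melanotropes 5 passed, with 2 without doublets and 31 to 51 with a library left out; against somatotropes 53 passed, and 64 to 119 with a library left out. Thinned to 2000 UMIs, the 22-month over 5-month ratio of shares in females was 0.431, and females over males at 22 months 0.365.

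Pcsk2 by age, not past the test, was -0.08 with 4 markers and -0.24 with no excluding UMI, and Lifr was -0.06 with 4 markers. With a library left out, log2 differences by age ranged from -0.03 to 0.34 for Tbx19, from -0.18 to 0.33 for Pcsk2, from -0.24 to 0.32 for Lifr and from -0.16 to 0.28 for Nr3c1. By sex they ranged from -2.16 to 0.34 for Btg2, from -0.11 to 2.83 for Pcdh7, from -1.24 to 3.99 for Gabrg3, from -3.79 to 0.02 for Junb, from -2.25 to 0.71 for Mt1, from -0.53 to 1.0 for Pomc and from -2.75 to 0.66 for Prl. The cause was not tested. The library labelled 22-month females had the fewest corticotropes, 57, and the fewest UMIs in them.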
